A study of Homo sapiens with 10 samples.

Results

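The comparison described here sets 3 libraries of KDM5A knockout cells that received a plasmid for wild-type KDM5A against 3 libraries of the same cells that received an empty vector. The cells are HCT116, a human colorectal carcinoma line, and the knockout is a purchased derivative labelled KDM5A-/-, which is 1 line and was kept in G418, an antibiotic that the parental cells did not receive. Cells were transfected, sorted for GFP at 24 hours, and their RNA was sequenced, so both groups share the knockout line, the G418 culture, the transfection and the sort. They differ by the KDM5A insert. The series holds 10 libraries. The other 4 are 2 of knockout cells given a mutant KDM5A, whose mutation the labels do not name, and 2 of parental HCT116 cells given the empty vector. Of 57993 gene symbols, 17779 reached a scaled value of 1 in 2 or more of the 10 libraries and were compared. A scaled value is the deposited expression value turned back to a linear scale and divided by a factor per library. It is normalised for transcript length by the authors, so levels can be set beside each other between genes.

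KDM5A is a demethylase of histone H3. Its JmjC catalytic domain takes methyl groups off lysine 4, a modification found at active gene starts when it carries 3 methyl groups. An ARID domain contacts GC-rich DNA with the core CCGCCC, PHD fingers read the tail of histone H3, and the protein was first known as a binding partner of the retinoblastoma protein. It is described mainly as a repressor, working with SIN3 and NuRD deacetylase complexes, and it has 3 close paralogs, KDM5B, KDM5C and the Y-linked KDM5D.

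KDM5A itself (chr12:280129-389454, minus strand) was the largest difference. Its scaled values were 12.2, 15.3 and 12.3 with empty vector and 13452, 16237 and 15598 with wild-type KDM5A, a log2 fold change of 10.05 ± 0.12 (SE; adjusted p = 4.59e-10 by limma, Benjamini-Hochberg over all 17779 genes). KDM5A then made up 1.38% to 1.61% of the summed values of a library. The empty-vector values of the knockout cells lay beside those of the parental cells (13.3 and 17.7), so the value of the whole gene shows the plasmid and does not check the knockout label. The genes that flank KDM5A on chromosome 12 did not pass. CCDC77 and SLC6A13 had means of 7.83 and 5.66 with empty vector and of 5.58 and 3.83 with wild-type KDM5A.

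The 6 libraries were alike in make-up. Protein-coding genes held 92.3% to 92.7% of the summed values, against 89.4% to 90.2% in the 2 mutant libraries and parental library 2. The deposited values sum to the same total in every library and carry no read counts, so the depth is unknown. The labels do not state whether replicates of a group were grown as separate cultures. The p-values therefore measure only the spread between these libraries, which may be technical. Between libraries of 1 group the median absolute log2 difference per gene was 0.08 to 0.11, and between groups it was 0.14 to 0.16. All 7 markers of HCT116 and colon epithelium, such as EPCAM and KRT8, were present, with sums of 4631 to 4681 and of 4882 to 5147 scaled units with empty vector and with wild-type KDM5A, and none passed the test. Of 23 markers of blood, endothelial and stromal cells, 17 were under 1 in all 6 libraries (PTPRC, CD3D and PECAM1 among them) and LUM was listed at 0 throughout. Their summed level was 43.5 to 50.4 with empty vector and 53.3 to 60.5 with wild-type KDM5A. CD14, a co-receptor for bacterial lipopolysaccharide that marks monocytes, rose from 1.88, 1.28 and 1.17 to 4.79, 4.11 and 3.87 (log2 fold change 1.11 ± 0.18, adjusted p = 0.0143), a call lost in 5 of the 6 fits that left out 1 library. The macrophage marker CD68 was at 13.2 to 13.5 and then at 16.6 to 21, and the alpha globin genes HBA1 and HBA2, near-identical copies, at 2.34 to 4.22 and 1.57 to 3.23 and then at 4.09 to 7.15 and 3.05 to 6.02. The fibroblast gene COL1A1 was at 20.2 to 28.7 and then at 17.3 to 24.2, and none of these 4 passed. The beta globin gene HBB, below the level for testing, was at 0.39 to 1.55 and then at 0.19 to 0.37. The part of such cells in the results below was not tested.

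With wild-type KDM5A, 448 genes were higher (2.52% of those tested) and 359 were lower (2.02%) at an adjusted p under 0.05, 807 in all (4.54%). The 2.52% and 2.02% are the shares to set beside the counts of list members given below. Most changes were small. The median log2 fold change was 0.37 among the higher and -0.43 among the lower genes, and 0.00 over all genes tested. The higher genes were expressed at a median of 61.6 with empty vector and 82.1 with wild-type KDM5A, and the lower genes at 27.7 and 20.1. Only 45 of the higher genes reached a ratio of 2 or more, and 35 of the lower genes were at or below the inverse of it. In all 807 the 3 values of 1 group lay wholly above the 3 of the other. Among all genes tested such a separation was seen for 16.4% in the higher and 16.2% in the lower direction. Protein-coding genes made up 424 of the higher and 307 of the lower genes, against 73.5% of all genes tested. By their annotated type they were 14 of the 15 largest rises and 2 of the 15 largest falls. The 14 include KDM5A itself and OR7E47P, whose symbol is that of a pseudogene.

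These counts depend on how the libraries are scaled and on each library. In the values as deposited, without the factor per library, 123 genes were higher and 613 lower, and the median of all genes moved to -0.10. When 1 library was left out, the counts of higher and lower genes were 196 and 115 without empty-vector library 1, 134 and 92 without empty-vector library 2, 119 and 76 without empty-vector library 3, 126 and 81 without wild-type library 1, 110 and 68 without wild-type library 2 and 124 and 72 without wild-type library 3. A core of 93 higher and 46 lower genes passed whichever of the 6 was left out. In a fit of the 6 libraries alone 958 were higher and 731 lower. Leaving out both mutant libraries and parental library 2 keeps 1 parental library, which adds nothing to the estimate of spread. That fit nearly repeats the fit of the 6 by construction, so its counts, listed with the alternatives below, are not a separate check.

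**Figure D1:**
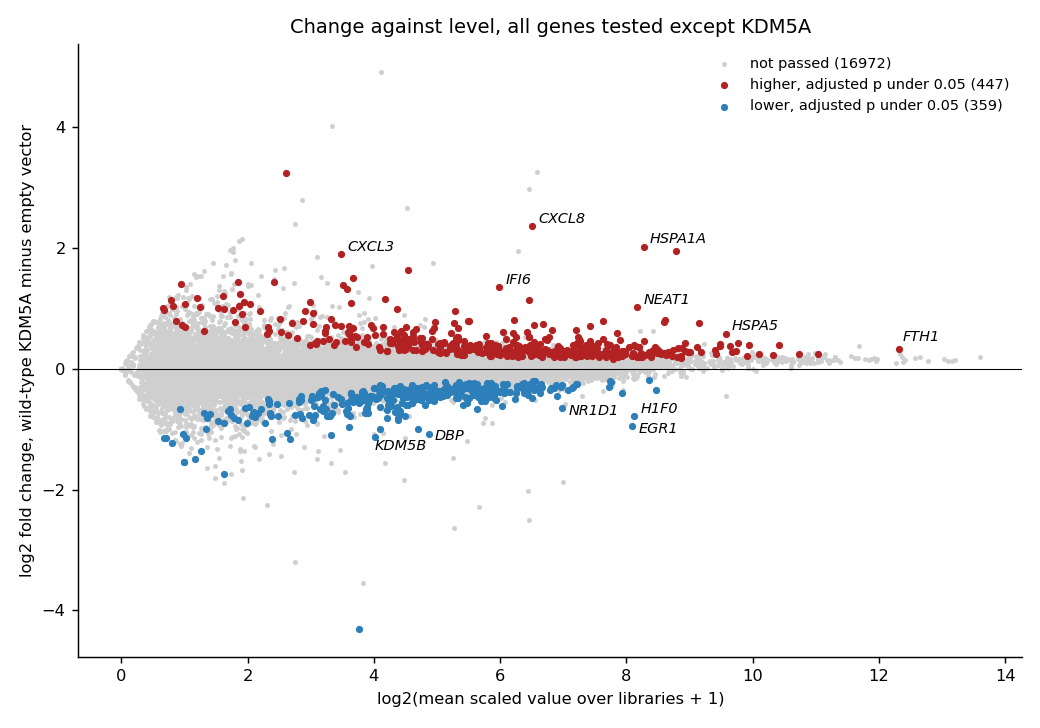
Each point is 1 of the 17779 genes tested, without KDM5A. The horizontal axis is the log2 of the mean scaled value plus 1 and the vertical axis is the log2 fold change between wild-type KDM5A and empty vector. Genes that passed are in red (higher, 447 without KDM5A) and blue (lower, 359). CXCL8, HSPA1A and CXCL3 stand above the bulk of genes, and EGR1 and H1F0 stand out among abundant genes that fell.

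Among the enzymes that remove methyl groups from lysine 4, KDM5B fell and the others did not pass. KDM5B, the paralog closest to KDM5A in function (chr1:202724491-202809470, minus strand), had scaled values of 25.8, 26.2 and 27 with empty vector and 15.6, 18.6 and 17 with wild-type KDM5A, a log2 fold change of -0.60 ± 0.07 (adjusted p = 0.0048). The highest wild-type library lay below the lowest empty-vector library, and the call held whichever library was left out. KDM5C, the X-linked paralog, had 51.4, 55.6 and 50.4 and then 52.9, 49.9 and 58.7, overlapping values that did not pass (adjusted p = 0.884). KDM1A, a demethylase of another enzyme class that removes 1 or 2 methyl groups, went from a mean of 103 to 106 and its relative KDM1B from 19.4 to 23.3, neither passing.

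Writers of the mark are the H3K4 methyltransferase complexes. Of 21 tested subunits 1 was higher and 2 were lower, with a median log2 fold change of 0.01. CXXC1, the CpG-binding subunit of the SETD1 complexes, rose from 78 to 98.2. KMT2E, a protein of the MLL family, fell from 30.8 to 22, and KDM6A, a demethylase of lysine 27 carried in the MLL3 and MLL4 complexes, fell from 25.6 to 18.4. None of these 3 calls held whichever library was left out. Of 30 subunits of the SIN3, NuRD and retinoblastoma complexes that KDM5A is known to work with, SUDS3 of SIN3 was higher (20.8 and 26.2) and GATAD1, a chromatin reader found with KDM5A, was lower (27.7 and 22.2). Of 12 tested genes described elsewhere as KDM5A targets, CDKN1A was higher and HOXA7 lower, and the median was -0.01. These 4 calls were lost when any 1 of the 6 libraries was left out. Over all genes tested 2.52% were higher and 2.02% lower, so counts as small as these are not read as results about the lists.

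After KDM5A, the largest log2 fold change among protein-coding genes that passed was that of the chemokine CXCL8, and 3 neighbouring chemokine genes rose with it. All 4 are known targets of NF-kB, the transcription factor of inflammatory signalling. CXCL8, interleukin 8, which attracts neutrophils (chr4:73740506-73743716, plus strand), had scaled values of 29.4, 26.6 and 29.8 with empty vector and of 149.9, 154 and 149 with wild-type KDM5A. The groups lay far apart, with a log2 fold change of 2.36 ± 0.09 (adjusted p = 7.44e-06, a ratio of 5.28). CXCL3 had 3.84, 3.45 and 3.82 and then 16, 16.8 and 16.9 (log2 fold change 1.90 ± 0.09, adjusted p = 2.20e-05). CXCL2 had 4.28, 5.68 and 6.01 and then 16.9, 14.9 and 14.7 (log2 fold change 1.39 ± 0.18, adjusted p = 0.00541). CXCL1 had 7.26, 5.05 and 5.27 and then 17.4, 16.9 and 13.8 (log2 fold change 1.32 ± 0.14, adjusted p = 0.00213). These 3 encode near relatives that act on the same receptor as CXCL8, and in each the lowest wild-type library was above the highest empty-vector library. The 4 genes lie next to each other among the tested protein-coding genes of chromosome 4 (chr4:73740506-74099293), the longest run of adjacent called genes in the comparison.

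The upstream sequences of the 4 neighbours are shown because they rose together. They are the 120 bases before each gene's start, from RefSeq on GRCh38.p14, with matches to the kappa-B motif of NF-kB in capitals. CXCL1 is read from chr4:73869273-73869392, plus strand, CXCL2 from chr4:74099196-74099315, minus strand, CXCL3 from chr4:74038690-74038809, minus strand and CXCL8 from chr4:73740449-73740568, plus strand.
CXCL1: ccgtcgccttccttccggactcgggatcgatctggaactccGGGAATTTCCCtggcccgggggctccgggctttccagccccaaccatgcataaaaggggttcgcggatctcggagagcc
CXCL2: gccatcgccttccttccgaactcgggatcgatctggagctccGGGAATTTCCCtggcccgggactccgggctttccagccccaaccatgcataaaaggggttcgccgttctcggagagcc
CXCL3: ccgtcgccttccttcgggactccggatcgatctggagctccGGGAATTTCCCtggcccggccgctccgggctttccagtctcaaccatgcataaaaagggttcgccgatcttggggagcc
CXCL8: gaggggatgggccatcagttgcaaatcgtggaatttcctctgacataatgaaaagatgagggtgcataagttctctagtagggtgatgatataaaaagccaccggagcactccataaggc
CXCL1, CXCL2 and CXCL3 carry the same run of 11 bases in capitals, a pair of overlapping matches that begin 77 to 79 bases before the start. The strict motif, GGGRNWYYCC, has no match in the CXCL8 window. The stretch tggaatttcc in that window differs from the motif at the first base alone.

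Across the list, 7 of 16 tested NF-kB target cytokines and acute-phase genes were higher and none lower, with a median log2 fold change of 0.46 against 0.00 for all genes. LCN2, which binds bacterial iron carriers, had 9.42, 9.02 and 12.7 and then 36.9, 29.8 and 36.5 (log2 fold change 1.65 ± 0.13, adjusted p = 0.000382). CCL20, a chemokine for lymphocytes and dendritic cells, stayed low but did not overlap, at 1.05, 0.953 and 0.8 and 4.01, 3.68 and 5.19 (log2 fold change 1.44 ± 0.19, adjusted p = 0.00634). SOD2, the mitochondrial superoxide dismutase, rose less, from a mean of 84.2 to 109. All but SOD2 passed whichever library was left out. Further members, IL6, TNF, CCL2, CXCL10 and CSF2 among them, were too low in these cells to be tested. LIF and TNFAIP2, at 61.8 and 74.3 with empty vector, were at 61.8 and 75.9 with wild-type KDM5A and did not pass. Of the 7 that rose, 5 have a kappa-B match within 250 bases before their start, on either strand, where 5.98% of 10662 tested protein-coding genes with a RefSeq window have one. Of all 16 tested members, called or not, 12 have a window (75%, under the minimum of 80% set for comparing shares) and 7 of these hold a match.

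Calls among the subunits and brakes of the pathway went both ways. Of 24 tested, 5 were higher and 2 lower, with a median of 0.02. NFKBIZ, an inducible nuclear co-activator, had 13.6, 11 and 13.8 and then 23.7, 23.4 and 32.9 (log2 fold change 0.99 ± 0.15, adjusted p = 0.0112). ZC3H12A, an RNase that degrades cytokine transcripts, had 21.2, 22.4 and 22.2 and then 39.9, 36.8 and 38.3 (log2 fold change 0.78 ± 0.06, adjusted p = 0.000399). Both calls held whichever library was left out. NFKBIA, the inhibitor of NF-kB that it induces itself, had means of 113 and 131 (adjusted p = 0.122), and TNFAIP3, another induced brake, had 18.8 and 21.5 (adjusted p = 0.37), neither passing. NFKBIE, an inhibitor of the same family, fell from 24.6 to 18.8, a call lost in 4 of the 6 fits that left out 1 library.

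**Figure D2:**
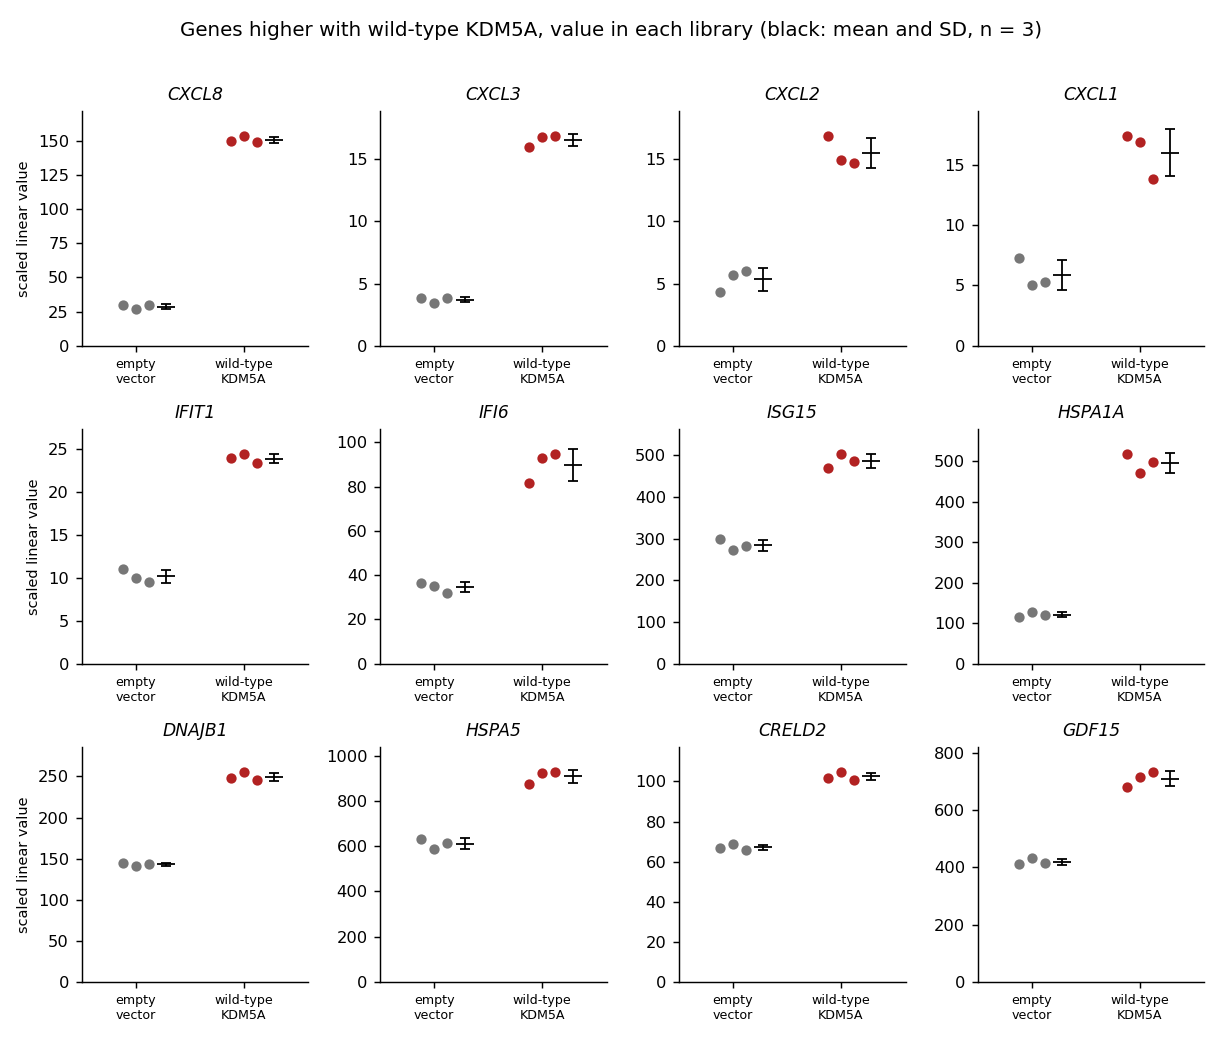
Scaled linear values, per library, of 12 genes that rose. Each point is 1 library of knockout cells, grey for empty vector and red for wild-type KDM5A, and the black marks give the mean and the SD of 3 libraries. In each panel all 3 red points lie above all 3 grey points, by the widest ratio in CXCL8 and CXCL3 of the genes shown.

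Genes that interferon induces formed the second group. Interferons signal through JAK kinases to transcription factors that bind the interferon-stimulated response element. Of 44 tested interferon-stimulated genes, 21 were higher and none lower, and the median log2 fold change was 0.44. IFIT1, which binds viral RNA that lacks a host cap, had 11, 9.99 and 9.49 with empty vector and 24, 24.4 and 23.4 with wild-type KDM5A (log2 fold change 1.16 ± 0.07, adjusted p = 9.64e-05). IFI6, a small membrane protein, had 36.5, 34.9 and 32.1 and then 81.7, 93.1 and 94.7 (log2 fold change 1.35 ± 0.07, adjusted p = 3.43e-05). In both, every wild-type value was more than 2 times the highest empty-vector value. ISG15, a ubiquitin-like modifier and the most abundant of these 4 genes, had 299, 273 and 281 and then 470.1, 503 and 487 (log2 fold change 0.77 ± 0.05, adjusted p = 0.000192). IFIT3 had 4.62, 4.42 and 3.42 and then 8.91, 8.26 and 9.62 (log2 fold change 0.95 ± 0.13, adjusted p = 0.00631). IFIT2, IFIT3 and IFIT1 are a run of neighbours on chromosome 10 (chr10:89301955-89406486).

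Of the 21, IFI6, IFIT1, IFIT2, IFIT3, ISG15 and TRIM14 passed whichever library was left out, and in the values as deposited 12 of the list were higher and 1 was lower. IFI27, which is strongly induced by type I interferon, rose from 5.71 to 17.8 but lost the call when any 1 of the 6 libraries was left out. Its empty-vector values were 6.42, 6.77 and 3.95. The sensors of double-stranded RNA OAS1 and OAS3, neighbours on chromosome 12, also rose, OAS1 from a mean of 1.33 to 3.5 and OAS3 from 30 to 48.7. Other well-known members did not pass. MX1, an antiviral GTPase, had 0.834, 1.03 and 1.18 and then 2.69, 0.986 and 1.18, 1 wild-type library above all others, and IFITM2 had means of 172 and 182.

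Windows before 2 leading genes are shown with matches to the core of the response element, GAAANNGAA on either strand, in capitals (RefSeq, GRCh38.p14). IFIT1 is read from chr10:89392493-89392622, plus strand (130 bases) and IFI6 from chr1:27672193-27672362, minus strand (170 bases).
IFIT1: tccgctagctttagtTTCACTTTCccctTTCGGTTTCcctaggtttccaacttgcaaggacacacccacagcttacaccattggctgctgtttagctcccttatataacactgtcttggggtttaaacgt
IFI6: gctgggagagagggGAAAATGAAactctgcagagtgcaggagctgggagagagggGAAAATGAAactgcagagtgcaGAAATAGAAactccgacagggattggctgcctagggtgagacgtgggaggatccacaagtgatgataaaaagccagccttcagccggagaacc
The core occurs within 250 bases before the start in 12 of the 18 higher interferon-stimulated genes that have a window, in 23 of the 36 tested ones, and in 5.37% of the 10662 tested protein-coding genes. An observed to expected CpG ratio of at least 0.6 was found in 27.8% of the same 18 windows, in 41.7% of the 36, and in 79.4% of those of the tested protein-coding genes.

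Upstream of these genes, 4 of 34 tested sensors and signalling genes were higher and none lower (median 0.13). IRF7, the factor that amplifies type I interferon production, had 15.7, 17.7 and 15.6 and then 27, 30.5 and 24.2 (log2 fold change 0.70 ± 0.10, adjusted p = 0.0079). It passed whichever library was left out. DDX58, the RNA sensor RIG-I, rose from 7.14 to 10.4 and STAT3 from 43.6 to 55.8, calls that were lost without some libraries. STAT2, at 26.9 and 29.3, and IRF1, at 34.6 and 37.5, did not pass. The interferon genes themselves were low. IFNB1 was below the level at which genes were tested, and IFNL1, IFNL2 and IFNL3, the lambda interferons, had means of 0.62 to 0.98 with empty vector and of 1.25 to 1.31 with wild-type KDM5A without passing.

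The antigen presentation genes of MHC class I, which display peptides to T cells and respond to interferon, had smaller rises. Of 19 tested, 6 were higher and none lower (median 0.26), but none of the 6 calls held whichever library was left out and none passed in the values as deposited. HLA-B had 289.7, 301 and 297 and then 369.9, 372 and 343 (log2 fold change 0.29 ± 0.05, adjusted p = 0.0129), and HLA-C and HLA-E rose by 0.29 and 0.25. HLA-F rose from a mean of 12.4 to 20.8. The HLA genes are close in sequence, and how reads shared between them were counted is not given in the sources used here. B2M, the invariant light chain, and TAP1, the peptide transporter, had log2 fold changes of 0.20 ± 0.07 and 0.28 ± 0.08 that did not pass.

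The cytosolic heat shock response, which HSF1 drives when proteins misfold, held rises second only to CXCL8 among protein-coding genes other than KDM5A. HSPA1A and HSPA1B, neighbouring genes for the inducible HSP70 (chr6:31815464-31817946 and chr6:31827735-31830255, plus strand), are nearly identical, so the split of reads between them is uncertain. HSPA1A had 116, 127 and 120.4 with empty vector and 518, 470.1 and 499 with wild-type KDM5A (log2 fold change 2.03 ± 0.14, adjusted p = 0.000165). HSPA1B had 175, 184 and 181 and then 692, 688 and 719 (log2 fold change 1.95 ± 0.09, adjusted p = 1.84e-05). Each wild-type value was more than 3 times each empty-vector value of the same gene. HSPA6, an HSP70 gene that is nearly silent without stress, was at 0.0404, 0.121 and 0 and then at 1.78, 1.76 and 1.87 (log2 fold change 1.41 ± 0.15, adjusted p = 0.00233). DNAJB1, the HSP40 partner of HSP70, had 144, 141 and 143 and then 248, 255 and 246 (log2 fold change 0.80 ± 0.04, adjusted p = 2.20e-05).

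In all, 10 of 32 tested heat shock genes were higher and none lower (median 0.22). HSPA1A, HSPA1B, HSPA6, HSPA8, DNAJB1, BAG3 and ZFAND2A passed whichever library was left out. In the values as deposited 8 of the list were higher and 1 was lower. BAG3, which hands HSP70 clients to autophagy, had 143, 144 and 144 and then 199, 194 and 199 (log2 fold change 0.46 ± 0.04), and ZFAND2A, a proteasome-associated stress protein, had 33.3, 29.6 and 32.4 and then 56.3, 55.8 and 55.4 (log2 fold change 0.80 ± 0.08). HSPA8, the constitutive HSP70, rose from 1171 to 1552 and was among the most abundant genes that passed. The HSP90 gene HSP90AA1, at 976 and 1145, and the small heat shock gene HSPB1, at 1046 and 1205, did not pass. CRYAB, another small heat shock gene, was at 0.192, 0.019 and 0.153 and then at 0.853, 1.42 and 1.83, which also missed the threshold (adjusted p = 0.0685).

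Upstream windows of HSPA1A (chr6:31815423-31815542, plus strand, 120 bases) and HSPA6 (chr1:161524350-161524539, plus strand, 190 bases) are shown with matches to a heat shock core, GAANNTTC, in capitals (RefSeq, GRCh38.p14).
HSPA1A: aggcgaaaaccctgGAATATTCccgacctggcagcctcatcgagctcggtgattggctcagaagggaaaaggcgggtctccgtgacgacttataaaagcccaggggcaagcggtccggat
HSPA6: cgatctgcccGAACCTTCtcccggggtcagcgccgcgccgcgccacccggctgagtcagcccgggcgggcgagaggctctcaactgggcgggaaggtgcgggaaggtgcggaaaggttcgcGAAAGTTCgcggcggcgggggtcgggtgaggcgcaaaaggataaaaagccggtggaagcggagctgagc
Of the 10 genes that rose, 5 have this core within 250 bases before their start. Of 29 tested list members with a window 10 have it, and of the tested protein-coding genes 4.04%.

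Genes of the endoplasmic reticulum unfolded protein response were higher as well. This response is sensed by ATF6, IRE1 and PERK and raises chaperones, folding enzymes and degradation factors for secretory proteins. Of 25 tested members 15 were higher and none lower, with a median log2 fold change of 0.37, and 9 were higher and none lower in the values as deposited. HSPA5, the lumenal HSP70 chaperone BiP, had 633, 587 and 611 with empty vector and 874, 923 and 926 with wild-type KDM5A (log2 fold change 0.57 ± 0.05, adjusted p = 0.00131). CRELD2, a secreted stress protein, had 66.7, 68.6 and 65.9 and then 102, 105 and 101 (log2 fold change 0.60 ± 0.05, adjusted p = 0.000653). HERPUD1, a membrane protein of the degradation pathway, had 122, 106 and 111 and then 159.8, 183 and 191 (log2 fold change 0.64 ± 0.07, adjusted p = 0.00359). In all 3 the groups were separated by more than the range within either group. PDIA4, a disulfide isomerase, had 262, 256 and 260.3 and then 349, 361 and 359 (log2 fold change 0.46 ± 0.04, adjusted p = 0.00131), and HYOU1, a lumenal chaperone that acts with BiP, had 196, 203 and 197 and then 277, 281 and 273 (log2 fold change 0.48 ± 0.05, adjusted p = 0.00176).

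HSPA5, HERPUD1, DNAJC3, PDIA4, CRELD2, MANF, HYOU1 and SEC61A1 passed whichever library was left out. HSP90B1, the lumenal HSP90, rose from 736 to 997 and the lectin chaperone CALR from 695 to 902, calls that were lost without some libraries. The regulators did not pass. XBP1, the factor made by IRE1 splicing, had means of 117 and 123, ATF6 had 16.3 and 14.3, and ERN1, which encodes IRE1, had 11 and 12.7. Splicing of XBP1 cannot be read from values per gene.

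Windows of HSPA5 (chr9:125241344-125241593, minus strand, 250 bases) and PDIA4 (chr7:149028491-149028640, minus strand, 150 bases) are shown with CCAAT, on either strand, in capitals (RefSeq, GRCh38.p14). CCAAT is the NF-Y site that forms part of the stress element these genes are known for.
HSPA5: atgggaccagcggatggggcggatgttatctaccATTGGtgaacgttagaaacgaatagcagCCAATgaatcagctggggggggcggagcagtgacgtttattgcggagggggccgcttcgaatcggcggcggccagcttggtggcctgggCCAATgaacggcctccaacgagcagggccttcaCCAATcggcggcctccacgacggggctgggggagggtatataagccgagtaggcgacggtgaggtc
PDIA4: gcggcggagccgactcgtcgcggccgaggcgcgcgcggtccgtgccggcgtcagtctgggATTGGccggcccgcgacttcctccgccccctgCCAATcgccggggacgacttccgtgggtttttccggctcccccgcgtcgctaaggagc
HSPA5 has 4 matches. CCAAT occurs within 250 bases before the start in 12 of the 15 higher genes and in 19 of the 24 tested members with a window, and in 35.3% of the tested protein-coding genes.

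Genes of the secretory pathway were higher as well, in lists drawn up after the values were seen. SEC61A1 is in both these lists and the unfolded protein response list above, so the 2 results overlap. Of 73 tested genes for signal recognition, translocation, N-glycosylation and transport coats, 25 were higher (34.2%) and none lower, with a median of 0.23. Over all genes tested 2.52% were higher. In the highest of 4 equal bins by mean level, where RPN2, SEC61A1 and TMED9 lie, 6.73% were higher. The share was not compared at matched level. The 25 were 6 of 12 oligosaccharyltransferase subunits, 6 of 24 genes of signal recognition, translocon and signal peptidase, 7 of 16 of the COPI coat, ARF and KDEL receptor genes, 2 of 11 COPII coat genes and 4 of 10 p24 cargo receptors. RPN2, an oligosaccharyltransferase subunit, had 178, 175 and 173 and then 239, 233 and 233 (log2 fold change 0.42 ± 0.05, adjusted p = 0.00239). SEC61A1, the channel of the translocon, had 178, 186 and 184 and then 245, 239 and 237 (log2 fold change 0.39 ± 0.05, adjusted p = 0.00501). TMED9, a p24 receptor, had 202, 199.7 and 196 and then 262, 257 and 254 (log2 fold change 0.37 ± 0.05, adjusted p = 0.00711). In each of the 3 the wild-type values lay above all empty-vector values by more than the range within either group. These 3 of the 25 passed whichever library was left out, and the other 22 did not. In the values as deposited 1 oligosaccharyltransferase gene, 1 translocon gene and 1 COPI gene were higher.

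The integrated stress response, in which PERK and its sister kinases raise ATF4, did not share the direction. Of 30 tested members DDIT4 was higher and CEBPB, JDP2 and CHAC1 were lower (median -0.05). CEBPB, a transcription factor, had 128, 126 and 128 and then 99.2, 102 and 105 (log2 fold change -0.32 ± 0.04, adjusted p = 0.00711). ATF4 had means of 612 and 659.9, DDIT3, which encodes CHOP, had 113 and 132, and ASNS, an amino acid synthesis target, had 287 and 269.7, none passing. Of the 4 calls, that of CEBPB held whichever library was left out.

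Of 30 tested p53 targets, 8 were higher and 1, PPM1D, was lower (median 0.15). GDF15, a stress cytokine, had 413, 432 and 414 with empty vector and 682, 717 and 733 with wild-type KDM5A (log2 fold change 0.76 ± 0.05, adjusted p = 9.10e-05). GADD45A, a growth arrest gene, had 287, 284 and 273 and then 476, 508 and 502 (log2 fold change 0.81 ± 0.07, adjusted p = 0.000718). BBC3, the pro-apoptotic protein PUMA, had 50.1, 52.2 and 52.1 and then 78.2, 77 and 82.2 (log2 fold change 0.61 ± 0.06, adjusted p = 0.00181). These 3 and TP53INP1 passed whichever library was left out. In the values as deposited 4 of the list were higher and 3 lower. CDKN1A, the CDK inhibitor p21, rose from 317 to 398 (adjusted p = 0.0354) and lost the call when any 1 of the 6 libraries was left out. MDM2, the p53 ubiquitin ligase, had 146 and 164 and did not pass. Several members have other known inducers, GDF15 and GADD45A among them. In the BCL2 family, BBC3 and PMAIP1 (NOXA) were higher and the survival gene BCL2L1 was lower, from 228 to 198, and the call of BBC3 alone held whichever library was left out.

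Further rises fell outside these groups. NEAT1, the long RNA that builds nuclear paraspeckles, had 189, 201 and 175 and then 404, 385 and 369 (log2 fold change 1.03 ± 0.06, adjusted p = 9.10e-05). PLAUR, the urokinase receptor, had 75.9, 77.2 and 75 and then 128, 129 and 126 (log2 fold change 0.74 ± 0.04, adjusted p = 8.20e-05), and its ligand PLAU rose from 159 to 215. POU2F2, a POU-domain transcription factor, had 1.97, 2.14 and 1.53 and then 6.15, 7.58 and 6.76 (log2 fold change 1.45 ± 0.14, adjusted p = 0.00131). All 4 passed whichever library was left out. PLAUR and PLAU were the only higher genes among 18 tested mesenchymal and matrix genes. AXL of the same list was lower, from 74.7 to 56.6 (log2 fold change -0.39 ± 0.07, adjusted p = 0.02). Its call was lost in 5 of the 6 fits that left out 1 library. Among the most abundant genes that passed were FTH1, the ferritin heavy chain, from 4528 to 5729, ACTB from 1923 to 2276 and EEF2 from 1564 to 1853. These 3 calls were lost when any 1 of the 6 libraries was left out, and FTH1 and ACTB have processed pseudogenes that can share their reads.

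Among genes that fell, EGR1 had the largest log2 fold change of the 8 most abundant. It encodes an immediate early zinc finger transcription factor (chr5:138465490-138469315, plus strand) and had 348, 358 and 366 with empty vector and 183, 188 and 187 with wild-type KDM5A, a log2 fold change of -0.94 ± 0.05 (adjusted p = 2.20e-05). Its relative EGR2 fell from 5.34 to 2.39 and lost the call when any 1 of the 6 libraries was left out. The list of 33 tested immediate early genes split, with 4 higher and 6 lower (median 0.04), and 1 and 6 in the values as deposited. IER5L, of the same induced class, had 103, 106 and 104 and then 71.8, 78.5 and 74.2 (log2 fold change -0.47 ± 0.05, adjusted p = 0.00207). MAFF, a small MAF factor, went the other way, with 69.2, 70.6 and 68 and then 115, 114 and 117 (log2 fold change 0.73 ± 0.06, adjusted p = 0.000382), and FOSL1, an AP-1 subunit, rose from 465 to 568. FOS, at 42.5 and 41.4, and JUN, at 171 and 145, did not pass.

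The 120 bases before EGR1 (chr5:138465359-138465478, plus strand) are shown with matches to the CArG box, the site of serum response factor, in capitals (RefSeq, GRCh38.p14).
EGR1: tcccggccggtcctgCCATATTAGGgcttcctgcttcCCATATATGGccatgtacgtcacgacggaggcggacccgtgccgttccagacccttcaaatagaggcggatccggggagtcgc
A CArG match occurs in 0.98% of the windows of tested protein-coding genes.

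Outputs of ERK signalling also split, 5 higher and 3 lower of 30 tested (median 0.02), and 1 and 3 in the values as deposited. The growth factor genes EREG and AREG, neighbours on chromosome 4, and HBEGF were higher, EREG with 268, 246 and 255 and then 326, 335 and 325 (log2 fold change 0.36 ± 0.06, adjusted p = 0.0163). EPHA2, an ephrin receptor, rose from 239.6 to 315. DUSP6, the phosphatase that switches ERK off, fell from 73 to 56.4, and the ETS factor ETV4 from 64.7 to 52.7. Of these, EPHA2 passed whichever library was left out.

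Genes of TGF-beta and BMP signalling were lower in 6 and higher in 2 of 35 cases (median -0.08). ID1, the inhibitor of bHLH factors that BMP induces, had 397, 392 and 396 and then 302, 318 and 312 (log2 fold change -0.34 ± 0.04, adjusted p = 0.00361). PMEPA1, a brake on TGF-beta receptors, had 7.06, 5.83 and 5.73 and then 1.9, 1.8 and 3.16 (log2 fold change -1.15 ± 0.20, adjusted p = 0.0186). Its log2 fold change was the lowest among protein-coding genes that passed, on a scale that understates the change of low genes. By the ratio of means the low gene C1orf192 fell further, to 0.141 against 0.368 for PMEPA1. SKIL, a co-repressor of SMAD proteins, had 27.5, 27 and 26.5 and then 16.3, 16.1 and 20.2 (log2 fold change -0.60 ± 0.11, adjusted p = 0.0209). ID3, BMP4 and SMAD4 were the other members that fell. SKI, a relative of SKIL, rose. Of these, ID1 passed whichever library was left out and the others did not.

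Of 19 tested clock genes 4 were lower and none higher (median -0.17). The circadian clock is a loop in which CLOCK and BMAL1 drive their own repressors and a set of output factors, and the 4 belong to those that the pair drives. NR1D1, the nuclear receptor REV-ERB alpha, had 153, 150.0 and 155 with empty vector and 96.3, 97.6 and 99.6 with wild-type KDM5A (log2 fold change -0.64 ± 0.04, adjusted p = 0.000165). NR1D2, REV-ERB beta, had 60.9, 58.9 and 60.9 and then 40.7, 41.2 and 42.7 (log2 fold change -0.53 ± 0.07, adjusted p = 0.00541). DBP, an output factor, had 35.7, 46.5 and 34 and then 17.4, 18.2 and 17.5 (log2 fold change -1.08 ± 0.12, adjusted p = 0.00301). In these 3 the groups were far apart, and the calls held whichever library was left out. PER1 fell from 69.1 to 49, a call lost in 5 of the 6 fits that left out 1 library. CLOCK, at 16.1 and 14.6, and ARNTL, which encodes BMAL1, at 13.3 and 13.6, did not pass. All libraries were taken at the single time of 24 hours, so a phase cannot be read.

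H1F0, the linker histone of non-dividing cells (chr22:37805093-37807436, plus strand), had 342, 350.3 and 357 and then 202, 210.4 and 201 (log2 fold change -0.77 ± 0.05, adjusted p = 0.00017) and passed whichever library was left out. In a list of 11 linker and replacement histones made after the values were seen, H1FX and H2AFJ fell with it and none rose. H1FX went from 234 to 189 and H2AFJ from 49.2 to 35.6, and neither call held whichever library was left out. Of 46 replication-dependent histone genes 1 was higher and 2 were lower.

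**Figure D3:**
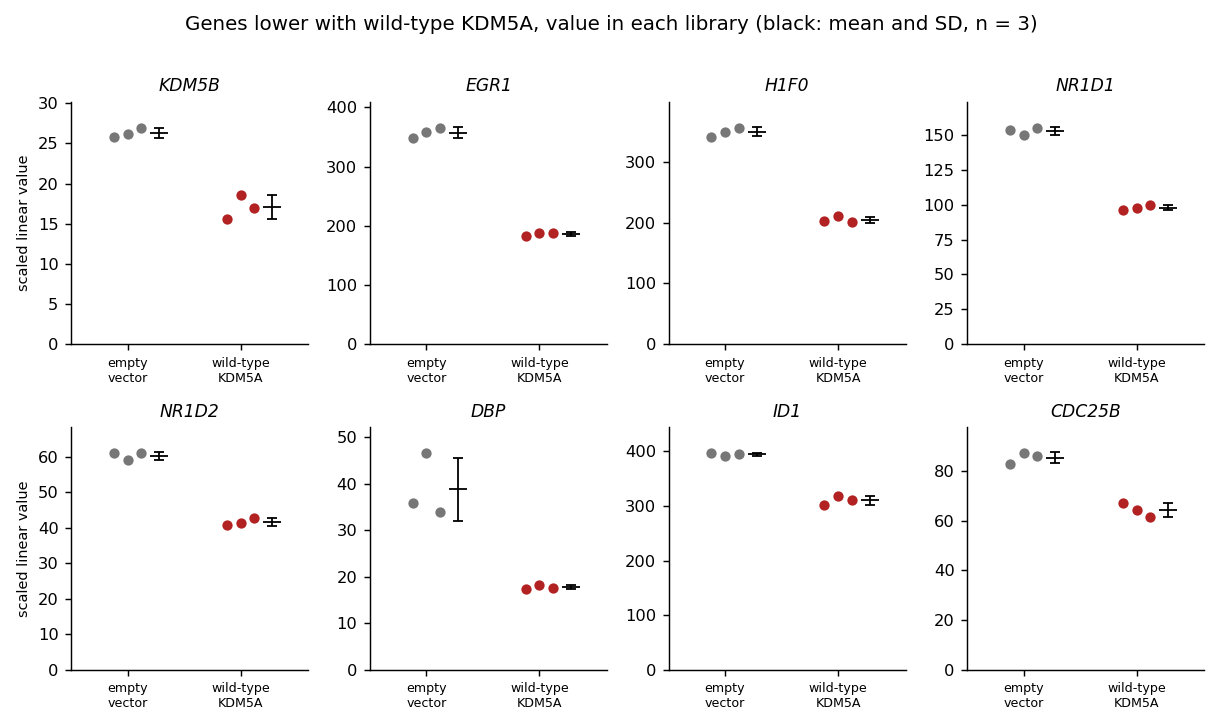
Scaled linear values, per library, of 8 genes that fell, drawn with grey points for empty vector, red points for wild-type KDM5A and black marks for the mean and SD of 3 libraries. All red points lie below all grey points in every panel. The spread is widest in DBP, whose empty-vector libraries ran from 34 to 46.5.

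The mitotic genes that passed were lower, by small amounts. Of 46 tested G2 and M phase genes 6 were lower and none higher, and the median was -0.17. CDC25B, a phosphatase that activates CDK1, had 82.8, 87.2 and 86.3 and then 67.3, 64.3 and 61.4 (log2 fold change -0.40 ± 0.05, adjusted p = 0.00466) and was the member whose call held whichever library was left out. CDK1 had 75.3, 68.5 and 70.2 and then 56.5, 53.8 and 54.3 (log2 fold change -0.37 ± 0.06, adjusted p = 0.0112). TOP2A, UBE2C, NEK2 and MKI67 also fell, while CDC20 (258 and 270.2), BIRC5 (116 and 116) and FOXM1 (54.6 and 54) did not pass. In the values as deposited 16 of the 46 were lower. In those values 613 of all 17779 genes were lower and 123 higher, and the median of all genes was -0.10. Of 44 replication genes FEN1 alone was lower (median -0.11), from 92.1 to 75.7. In bulk RNA, fewer cells in a phase and less RNA per cell cannot be told apart.

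HOX genes, which set position along the body axis, had a median of -0.28, the lowest of all lists examined. HOXB6, HOXB9 and HOXA7 fell among 27 tested and none rose, and none of the 3 calls held whichever library was left out. HOXB6 had 24.5, 31.7 and 28.5 and then 18.1, 18 and 19.7 (log2 fold change -0.57 ± 0.11, adjusted p = 0.0263). HOXA9, the most abundant of the tested HOX genes, had means of 139 and 133 and did not pass. Zinc finger genes named ZNF and a number, a class noticed after the values were seen, had 24 lower and 3 higher among 379 tested, 6.33% and 0.79%, with a median of -0.13. Over all genes tested 2.02% were lower and 2.52% higher. Whether the zinc finger calls hold when 1 library is left out was not examined.

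**Figure D4:**
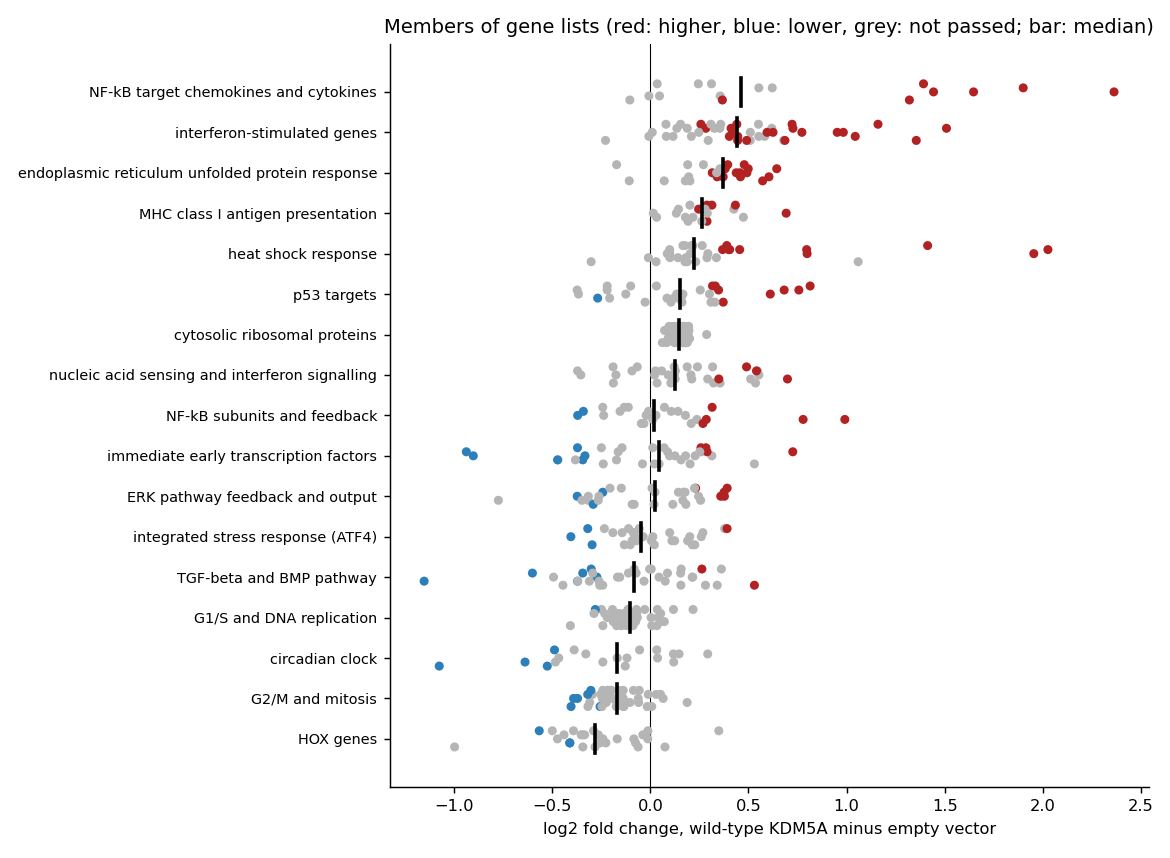
Log2 fold changes of the tested members of 17 gene lists, ordered by their median (black bar) from NF-kB targets at 0.46 to HOX genes at -0.28. Each point is 1 gene, red where it was higher, blue where it was lower and grey where it did not pass. The interferon, heat shock and endoplasmic reticulum lists hold red and no blue points, and the clock, mitosis and HOX lists hold blue and no red points.

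The remaining lists held 0 to 4 calls each, where 2.52% of all genes tested were higher and 2.02% lower. No gene passed among 24 of the Wnt pathway, 21 of Notch, 30 of MYC and ribosome biogenesis, 23 epithelial genes, 73 cytosolic ribosomal proteins, 61 nuclear genes of oxidative phosphorylation or 13 mitochondrially encoded genes. The ribosomal protein genes had a median of 0.15, which fell to -0.03 with quantile normalization, so no direction is given for them. In cholesterol synthesis 3 of 33 were higher, HMGCS1, MSMO1 and DHCR7, HMGCS1 with 254, 235 and 245 and then 318, 314 and 319 (log2 fold change 0.37 ± 0.06, adjusted p = 0.0151). In the values as deposited none of the 33 was higher and 1 was lower, and with quantile normalization 2 were higher and 2 lower. Of 35 hypoxia and glycolysis genes SLC2A1 and NDRG1 were higher, against none higher and 1 lower in the values as deposited. Of 27 NRF2 targets 3 were higher and 1 lower, with AKR1B10, an aldo-keto reductase, at 2.19, 1.89 and 2.24 and then 5.13, 5.81 and 4.23 (log2 fold change 0.95 ± 0.16, adjusted p = 0.0145). Among 8 metallothionein and zinc transport genes, the zinc exporter SLC30A1 fell from 16.9 to 10.4 (log2 fold change -0.66 ± 0.09) and MT1E fell, while the importer SLC39A10 rose from 17 to 22.6. Of 14 CDK and inhibitor genes of the retinoblastoma pathway CDKN1A alone was higher, and of 33 recombination genes RAD50 alone was lower. Of the calls in these lists, that of SLC30A1 held whichever library was left out and the others did not.

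Calls were not spread evenly over the genes tested. The genes were divided into 4 bins of equal size by mean level. From the lowest to the highest bin, 0.36%, 1.19%, 1.80% and 6.73% of genes were higher. Lower genes made up 0.47%, 1.57%, 3.20% and 2.83%, most in the bin below the highest. In the same division by exonic length, from the shortest to the longest, 1.38%, 3.37%, 3.55% and 2.01% were higher and 1.11%, 2.47%, 2.03% and 2.61% lower. Higher genes were thus most frequent in the middle bins of length. Of the higher protein-coding genes, 349 have a RefSeq window, and 72.8% of these hold CCGCCC, the core described for the ARID domain of KDM5A, within 250 bases before the start on either strand, against 67.4% of the 10662 tested protein-coding genes. CpG-rich windows, at a ratio of 0.6 or more, were 77.7% of the higher and 79.4% of the tested genes. Of the 307 lower protein-coding genes 244 have a window (79.5%), just under the same minimum of 80%, so nothing is read from their shares. These were 63.1% with CCGCCC and 79.9% with a CpG-rich window.

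The mutant and parental libraries give a second view of the same members. Mutant and wild-type KDM5A libraries were compared directly in the same model, in which 10 of the 17779 genes passed (0.0562%) and none of the 807. At an unadjusted p under 0.05, 224 of the 807 differed, and 3583 of all 17779 genes. The 807 were chosen with the same wild-type libraries, so their count cannot be read against that of all genes. KDM5A itself was at 23346 and 22816 in the mutant libraries, a log2 difference from wild-type of 0.62 ± 0.13 (adjusted p = 0.0926). CXCL8 had 150.3 and 116 with the mutant, a difference of -0.19 ± 0.10 (adjusted p = 0.328). KDM5B had 14 and 14.8, a difference of -0.23 ± 0.08 (adjusted p = 0.172). HSPA1A had 925 and 879, a difference of 0.86 ± 0.15 (adjusted p = 0.0806), the mutant values lying above all wild-type values. With 2 mutant libraries a p above the threshold does not show that the plasmids act alike.

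The parental cells with empty vector are set beside these values without a test. KDM5B was at 24.5 and 25.2 there, close to the empty-vector knockout libraries. EGR1 was at 337 and 313 and NR1D1 at 147 and 138, also near the empty-vector knockout libraries, and CXCL8 at 15.5 and 16.6, below them. GDF15 differed from these, at 786 and 789 in parental cells, above the knockout cells with empty vector and with wild-type KDM5A. The parental cells differ from the knockout by line and by G418 as well as by genotype, which cannot be told apart.

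**Figure D5:**
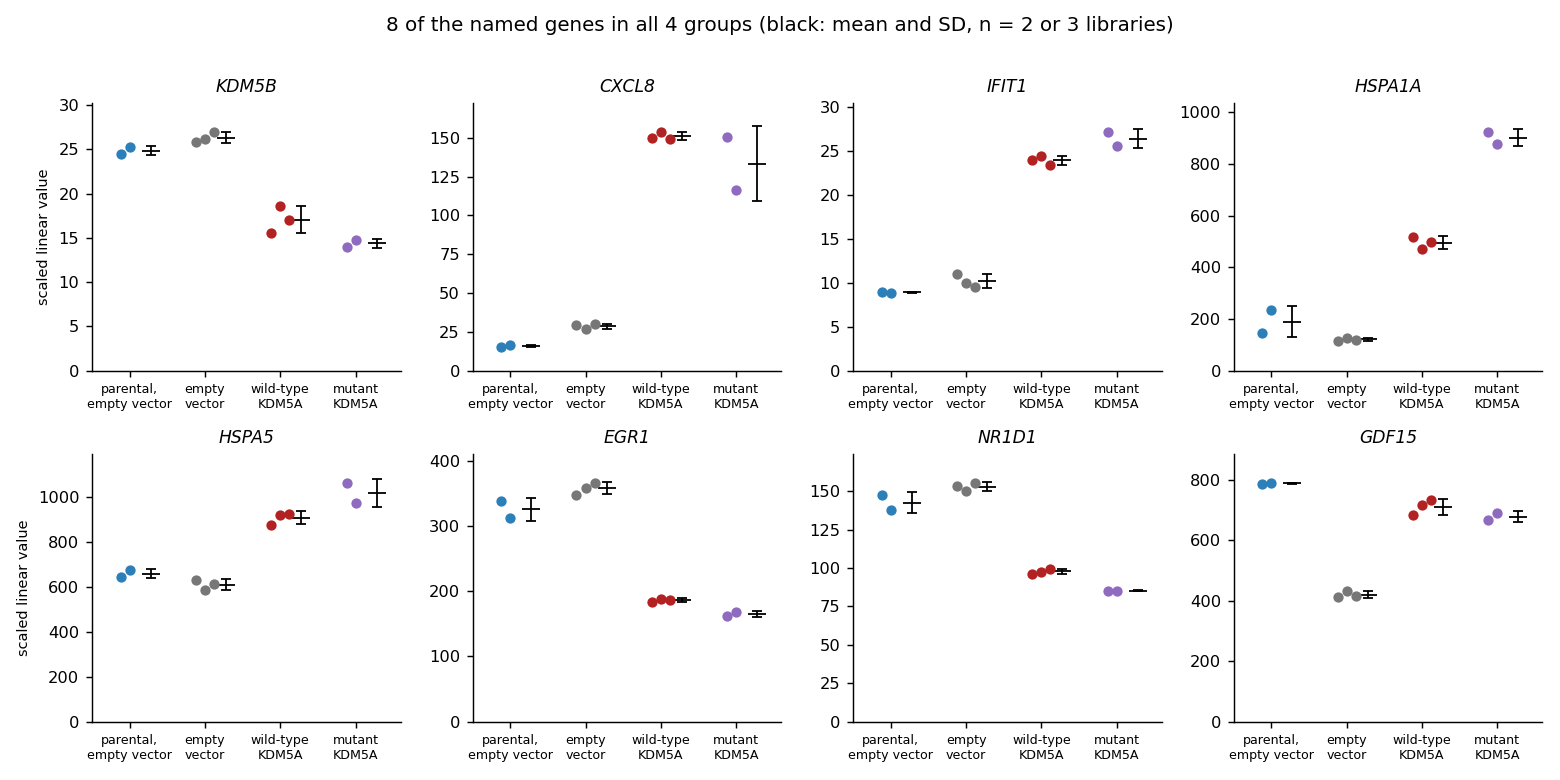
Scaled linear values of 8 named genes in all 10 libraries, by group, with black marks for the mean and SD of 2 or 3 libraries. The wild-type and mutant KDM5A libraries lie on the same side of the empty-vector knockout libraries in each panel, and the parental libraries lie nearest the empty-vector knockout group in all panels but that of GDF15.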

How the data were processed

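RNA from GFP-sorted HCT116 cells was sequenced in 10 libraries, 6 of which enter this comparison. The authors deposited 1 table per library with log2 FPKM values for 60141 loci, and the submitters' processing notes list GRCh38, Cufflinks 2.2.1, GATK 4.1.2, Picard and STAR 2.7.1a, with no order. The annotation release, the strand setting and the per-library sequencer are not given in the sources used here. Adding 1 before taking the log2 is visible in the deposited values, whose linear sums are equal between libraries, so FPKM had been rescaled.

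Values were made linear, summed per symbol (57993) and divided by a median-of-ratios factor over the 13651 genes at 1 or more in every library. Loci were matched to GENCODE 29 for gene type and length (93.4%). log2(scaled value + 1) was fitted with limma 3.58.1 in R 4.3.3 (lmFit, eBayes with trend, two-sided), with 4 groups over all 10 libraries (6 residual and 2.99 prior degrees of freedom) and Benjamini-Hochberg adjustment over 17779 genes. Fold changes on this scale understate the change of low genes. The fit was tested on simulated data. Python 3.11.15, numpy 2.4.6, pandas 2.3.3 and matplotlib 3.10.9 did the rest.

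The members and gene lists were chosen with earlier results of these data known. The rule for naming genes took KDM5A, in each direction the 15 called genes of largest change without overlap and with a group mean of at least 1 (protein-coding or established names), the 8 most abundant called genes each way, up to 5 members per list of smallest p (2 where fewer than 2 passed), and the KDM5 family. Some genes that it took are not reported here. Other genes given with values, the secretory, histone and zinc finger lists and the leave-out of both mutant libraries with parental library 2 were chosen after the values were seen. Alternatives were other scalings, pseudocounts, filters, sets of libraries, weights, thresholds, a replicate block and each library left out.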

Additional observations from a re-analysis of the deposited data

How the results depend on the processing

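Scaling, the libraries in the fit and the number of libraries moved the counts of genes. Higher and lower genes numbered 123 and 613 in the values as deposited, 958 and 731 in a fit of the 6 libraries alone, 954 and 736 without both mutant libraries and parental library 2, 1109 and 992 with array weights, 811 and 759 at an adjusted p under 0.1, and 31 and 17 with an absolute log2 fold change of at least 1 as well. The fit without both mutant libraries and parental library 2 nearly repeats the fit of the 6 by construction and is no separate check. Without a filter on low values 238 were lower. Leaving out 1 library gave 110 to 196 higher and 68 to 115 lower genes, with fewer samples in the fit. Of the 807 genes, 475 were also called in the values as deposited, 798 in the fit of 6 libraries and 168 to 285 when 1 library was left out. Quantile normalization, the other pseudocounts, a mean of at least 5, the 8 knockout libraries, no mutant libraries and protein-coding genes only kept both counts within 1.5 times.

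Deviations of same-numbered libraries from their group means had correlations of -0.175, -0.055 and 0.071, with 1 of 3 pairs positive. Deviations from a mean of 3 libraries constrain each other, so these values cannot decide whether same-numbered libraries were prepared together. The labels state no pairing. With the replicate number as a block, 124 genes were higher and 90 lower with 10 libraries, and 108 and 71 with 6. A block uses up residual degrees of freedom.

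Of 144 called genes taken by the naming rule or added to it, 59 passed whichever library was left out and 40 passed under none of the 6 leave-outs. Some of the 144 are not reported here, and some called genes given above are not among them. Signs changed in genes that had not passed. As deposited, log2 fold changes were -0.0677 for KDM1A, -0.0783 for KDM5C, -0.0977 for KDM2A, -0.0047 for ATF4 and -0.043 for XBP1. With quantile normalization they were -0.0083 for KDM1A, -0.0239 for MT-ND2, -0.0187 for MT-ND1, -0.0107 for NPM1 and -0.0604 for ATF4. Leaving out 1 library gave -0.0286 to 0.0866 for KDM5C and -0.0139 to 0.0451 for KDM2A. Many list medians changed sign with scaling, and no direction is given for them. Among these were oxidative phosphorylation, glycolysis, NRF2 targets, MYC and epithelial genes. NF-kB subunits, immediate early genes, ERK outputs, cholesterol synthesis and the retinoblastoma pathway were others. The median of the mitochondrially encoded genes went from 0.14 to -0.13 with quantile normalization. Depth is unknown, so counting error could not be separated from other spread.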
